A study of Arabidopsis thaliana with 25 samples.

Results

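The genes described here encode proteins of the large (60S) subunit of the cytosolic ribosome and of its P-stalk in Arabidopsis thaliana. They were taken as a fixed list of 58 locus identifiers, out of 27444 nuclear protein-coding genes, and lay on all 5 chromosomes. The list is part of the family: 71 other genes of the large subunit and stalk were kept apart and are given for comparison. The gene table used here gives a symbol to 19 of the 58, and the other 39 are named by their locus.

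Chromatin immunoprecipitation followed by sequencing (ChIP-seq) had been carried out on whole Col-0 wild-type seedlings. The antibodies recognised SPT5, ELF7, SSRP1 or SPT16 (4 libraries each) or RNA polymerase II (RNAPII) phosphorylated on its carboxy-terminal domain at serine 2 (S2P, 2 libraries) or serine 5 (S5P, 2 libraries), and 5 input libraries had no antibody. Plants grew with 16 h of light at 21 °C and 8 h of darkness at 18 °C. A protocol of 10 min at 44 °C is attached to each of the 25 samples, and no label says which, if any, were heated. The antibodies to the elongation factors had been raised against recombinant parts of the proteins, and seedlings mix many cell types, so that a factor present in more cells and more factor per cell cannot be told apart.

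The values are peak summits: 8 lists, 1 for each factor with each RNAPII form, with 30216 summits. A list named SPT5 over S5P was read as SPT5 libraries called against S5P libraries, so that a summit marks a place where the factor exceeded that form of RNAPII. The sources used here do not state this reading, nor how libraries were pooled. Lists of 1 factor are then not independent, and neither are lists over 1 form. The score of a summit is the −log10 of its q-value, with 2 as the lowest value kept, and it ranks summits within a list only. There is no value per library, so nothing below has a replicate error or a p-value, and sequencing depth is unknown. A gene was counted where a summit lay inside it or within 500 bp of it, and of several summits the strongest was taken.

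SPT5, with SPT4, binds RNAPII soon after initiation and travels with it. ELF7 is the Arabidopsis PAF1 protein, part of a complex that joins elongating RNAPII, and SSRP1 and SPT16 form FACT, a chaperone that takes apart and rebuilds nucleosomes as RNAPII passes. S5P is typical of early and S2P of later transcription. Ribosomal protein genes are among the most heavily transcribed genes of growing plant tissue. In Arabidopsis each protein of the ribosome is encoded by a small family of paralogs, of which more than 1 is usually expressed.

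The large subunit genes carried summits of each of the 4 factors, and in each list they did so more often than protein-coding genes at large. SPT5 over S5P had a summit at 37 of the 58 (63.8%), against 15.6% of all genes, which is 4.08 times the background share. SPT16 over S5P had 38 (65.5%, background 24.2%) and SPT16 over S2P 35 (60.3%, background 21.0%). The other FACT subunit gave similar counts, with 34 for SSRP1 over S2P (58.6%, background 19.1%) and 31 for SSRP1 over S5P (53.4%, background 14.4%).

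ELF7 was found at fewer of these genes, 14 over S2P (24.1%, background 8.54%) and 4 over S5P (6.9%, background 2.08%). SPT5 over S2P, the shortest list, held 3 (5.17%, background 1.05%). No test was made of these shares, since the genes are not replicates and the list was chosen with earlier results of these data known. The members were from 951 to 3001 bp long, with a median of 1701.5 bp, against a median of 2078 bp for all protein-coding genes.

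The 71 other genes of the large subunit and stalk gave shares of 53.5% for SPT5 over S5P, 50.7% for SSRP1 over S2P, 42.3% for SSRP1 over S5P, 47.9% for SPT16 over S2P, 64.8% for SPT16 over S5P and 19.7% for ELF7 over S2P. SPT5 over S2P held 8 of these 71 (11.3%), a larger share than among the 58, and ELF7 over S5P held 2 (2.82%), a smaller one. These genes are shorter, with a median of 1337 bp. The highest number of lists among them, 8, was that of RPL27AB, a gene for ribosomal protein L27a.

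**Figure D1:**
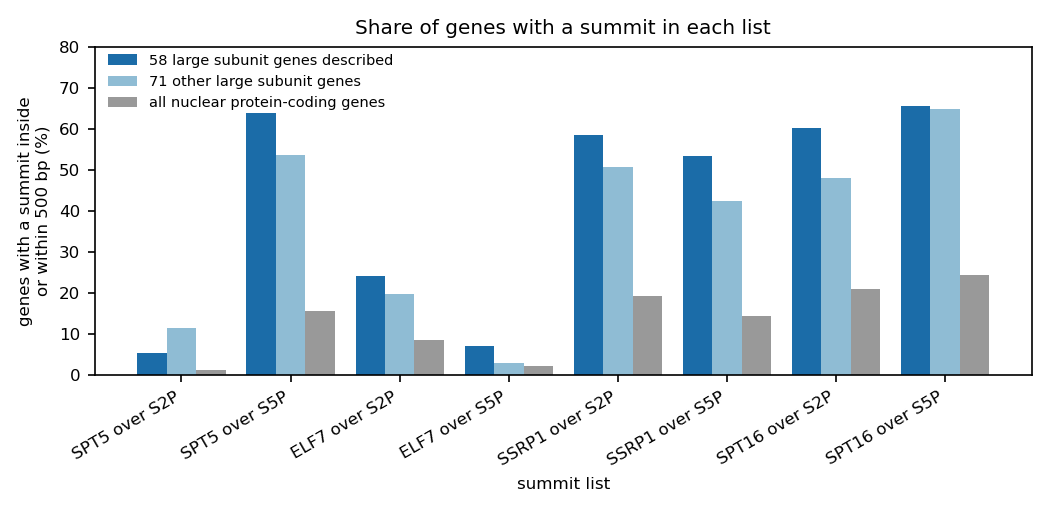
Share of genes with a summit inside or within 500 bp (y axis, percent) in each of the 8 lists (x axis), for the 58 large subunit genes described, 71 other large subunit genes and all nuclear protein-coding genes. The 58 genes stand above all protein-coding genes in each list, for example at 63.8% against 15.6% for SPT5 over S5P.

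Most of the genes either appeared in many lists or in very few. At least 1 list held 48 of the 58 (82.8%, background 36.8%), and 5 or more lists held 28 (48.3%, background 7.63%). All 4 FACT lists together held 28 (48.3%, background 11.1%), and 22 of those also had a SPT5 summit over S5P (37.9%, background 2.87%). The gene emb2386 (AT1G02780), named for the embryo-defective phenotype of its mutants, was the 1 member in all 8 lists (background 0.204%). ATL5 (AT3G25520), also known as PGY3, codes for ribosomal protein L5, which binds the 5S ribosomal RNA, and was in 7.

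Summits of emb2386 were mostly low in score, at the 58.2nd percentile or lower in each list. They ranged from 2.11 for SSRP1 over S2P to 4.67 for SPT16 over S5P. Its strongest ELF7, SSRP1 and SPT16 summits stood between 735 and 779 bp from a gene end, in the middle of a gene of 1736 bp. SPT5 stood over S5P at position 607813 of chromosome 1, inside the gene and 14 bp from one end, and over S2P at 609167, 367 bp from the other end. A weaker SPT16 summit over S5P (2.23) lay near the former, at 607781, 18 bp outside the gene.

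The summits of ATL5 were stronger. SPT5 over S5P reached 14, the highest score of the 58 genes in that list and at the 99.5th percentile of all genes in it. It lay at position 9271675 of chromosome 3, 210 bp outside the gene and inside the neighbouring gene AT3G25530. SPT16 over S5P scored 10.9 at 9271700, 235 bp outside the same end and inside the same neighbour. Inside the gene, SSRP1 over S2P scored 6.6 at 906 bp and SPT16 over S2P 8.26 at 825 bp from the end, ELF7 over S2P 4.93 at 1024 bp and ELF7 over S5P 2.92 at 663 bp. Its ELF7 summits and its summits over S2P were thus within the gene.

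**Figure D2:**
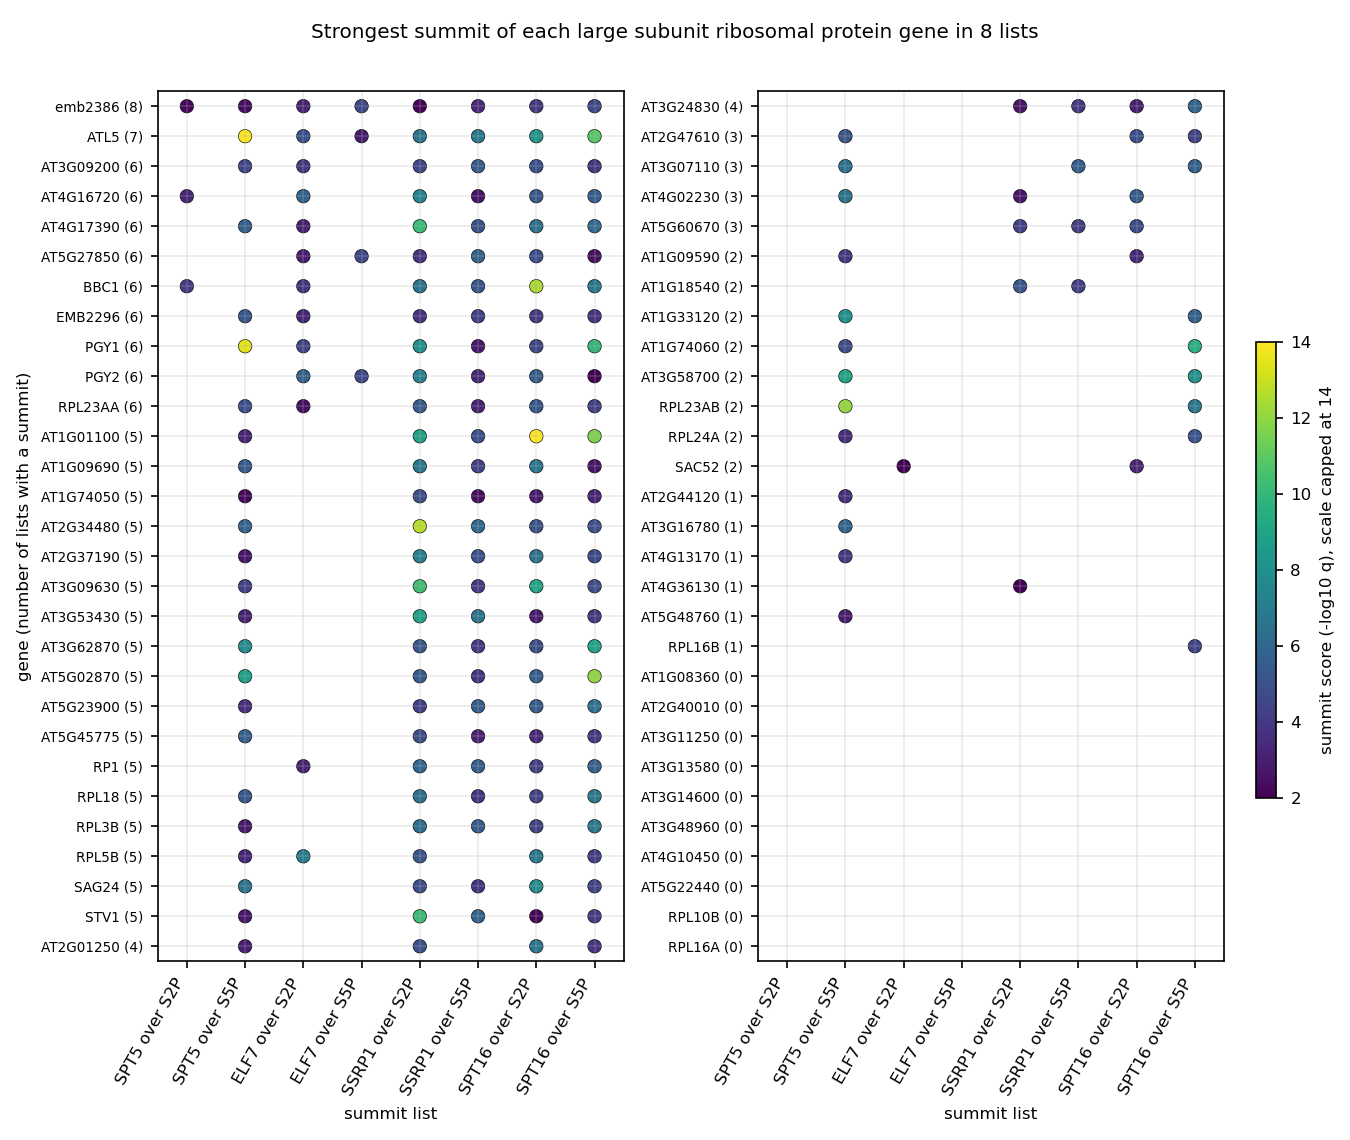
Strongest summit of each of the 58 genes (rows, with the number of lists in brackets) in each of the 8 lists (columns); colour gives the summit score (−log10 q, capped at 14), and an empty place means no summit. The left panel holds 28 genes in 5 or more lists, from emb2386 with 8 downwards, and 1 gene in 4, and the last 10 genes on the right have none.

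SPT5 over S5P marked the edges of the large subunit genes. Its strongest summit lay within 100 bp of a gene end in 30 of 37 members (81.1%), against 56.8% of all genes in that list. The median distance to the end was 51 bp, against 84 bp for all genes, and 23 of the 37 summits (62.2%) lay just outside the gene, close to the 62.1% of all genes. With summits inside the gene alone, 16 members were counted (background 6.13%). Scores in the list were ordinary for the group, with a median of 4.88 against 4.69 for all genes, and 20 of 37 above that value.

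The highest SPT5 scores over S5P after ATL5 belonged to PGY1 (AT2G27530) and RPL23AB (AT3G55280). PGY1 (PIGGYBACK1) is known from mutants that alter leaf polarity in Arabidopsis. Its summit scored 13.5 at position 11763104 of chromosome 2, 113 bp outside the gene and inside AT2G27520. RPL23AB, for ribosomal protein L23a at the mouth of the peptide exit tunnel, scored 12.1 at position 20501824 of chromosome 3, 86 bp outside. These 3 genes were the members with scores of at least 10, and all 3 summits lay outside the gene.

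Next in score were AT3G58700 (9.0, 20 bp from the end), AT5G02870 (8.89, 52 bp), AT1G33120 (8.05, 57 bp) and AT3G62870 (7.78, 60 bp). The closest summits to an end were those of RPL18 (AT3G05590), for ribosomal protein L18, at 4 bp and a score of 5.22, of AT3G07110 at 5 bp and 6.53, and of RPL3B (AT1G61580) at 6 bp and 2.83, the last of these inside the neighbouring gene AT1G61575. RPL3B and RP1 (AT1G43170, also RPL3A) code for ribosomal protein L3, which reaches toward the peptidyl transferase centre. At the other extreme, the summits counted for AT1G74060 (4.8) and AT4G13170 (3.9) lay 495 and 1316 bp from the end, and both were inside another gene as well.

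SPT5 summits over S5P stood at both ends of a few genes. ATL5 had a further one of 4.55, 45 bp outside its other end, and one of 2.58 inside. RPL23AB had one of 4.35, 135 bp outside the other end, AT5G02870 one of 3.44 at 74 bp outside and AT3G58700 one of 4.51 at 8 bp inside. The other 33 members had 1 summit. Where genes lie close together a summit between them cannot be given to one of them: 26 of the 37 strongest summits were also within 500 bp of another protein-coding gene, 8 lay inside one and 11 were nearer to it. With each summit given to the nearest gene, 27 members were left (46.6% against 10.2% of all genes), a rule chosen after the data were seen.

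**Figure D3:**
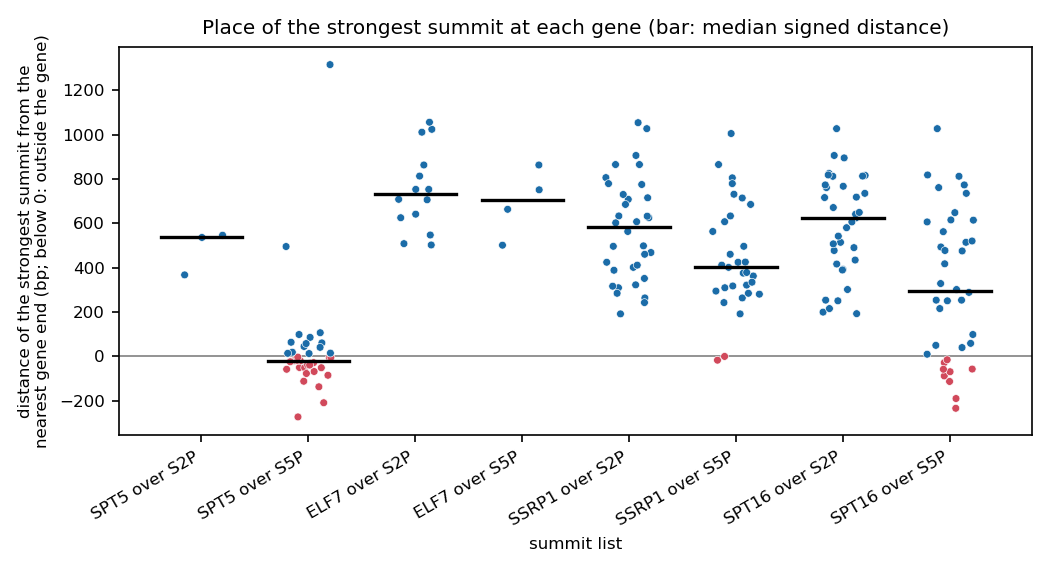
Distance of the strongest summit from the nearest end of the gene (y axis, bp; below 0 is outside the gene, in red) for each member in each of the 8 lists (x axis); black bars are medians of the signed distance. SPT5 over S5P gathers at the gene end, with 30 of 37 within 100 bp, whereas all ELF7 summits lie 501 to 1056 bp inside.

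FACT over S2P lay in the bodies of the genes, as it did in most genes of these lists. All 34 SSRP1 and all 35 SPT16 strongest summits over S2P were inside the gene, none within 100 bp of an end, with medians of 582.5 bp (range 191 to 1054) and 624 bp (range 192 to 1027) from the nearest end. Among all genes 9.4% of the SSRP1 and 10.9% of the SPT16 strongest summits were outside the gene, and 1.51% and 3.14% were within 100 bp of an end. The median distances of all genes were 453 and 476 bp. Those of the 71 other large subunit genes, which are shorter, were 387 and 464.5 bp. As a share of gene length from the nearest end, where 0.5 is the centre, the medians were 0.352 and 0.377, against 0.231 and 0.258 for all genes.

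The scores of FACT over S2P at these genes were mostly low for their lists. The median was 5.38 for SSRP1, against 7.18 for all genes, and 9 of 34 members exceeded the latter value. SPT16 had a median of 4.98 against 6.64, with 8 of 35 above. These genes were therefore found often by FACT over S2P and with modest scores. The highest SSRP1 score was 12.7, at AT2G34480, 460 bp from an end, followed by AT3G09630 (10.3 at 309 bp), STV1 (10.2 at 191 bp) and AT4G17390 (10.2 at 284 bp). STV1 (AT3G53020) is a gene for ribosomal protein L24, known for its part in translation reinitiation and in pistil patterning in Arabidopsis.

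SPT16 over S2P was highest at AT1G01100, with 16.8 at position 50960 of chromosome 1, 250 bp from the end and at the 91.6th percentile of the list. It was followed by BBC1 (AT3G49010, breast basic conserved 1) with 12.5 at 215 bp. AT3G09630 came next with 8.99 at 416 bp, and then ATL5 with 8.26. The 4 SSRP1 summits with scores of at least 10 had a median distance of 296.5 bp from an end and the 2 SPT16 ones of 232.5 bp, both below the medians of all members.

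Both FACT subunits also had summits over S5P, and more SPT16 summits over S5P stood at gene ends than in the other 3 FACT lists. Of its 38 strongest summits, 11 (28.9%) lay within 100 bp of a gene end, against 24.3% for all genes. Outside the gene lay 9 of the 38 (23.7%), against 34.2% for all genes. Counting summits inside the gene alone left 33 members (background 17.3%). Of the 38 strongest summits, 13 were also within 500 bp of another protein-coding gene, 7 lay inside one and 7 were nearer to it. With each summit given to the nearest gene, 34 members were left (58.6% against 19.6% of all genes). The median distance to an end was then 404.5 bp in place of 294.5 bp. SSRP1 over S5P had 2 of 31 within 100 bp (6.45%, against 7.29% of all genes), at AT3G07110 and ATL5. SPT16 over S5P had several summits in 17 members (44.7%), against 27.5% of all genes in the list, and 11 of the 38 members (28.9%) had at least 1 within 100 bp of an end together with 1 deeper in the body. Among all genes in that list this was so for 11.5%.

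The genes with this double pattern included emb2386, ATL5, PGY1, RPL5B, RPL23AA and EMB2296. At PGY1 the summit at the end lay inside the neighbouring gene AT2G27520. At RPL23AA it lay 48 bp outside, further out than a SPT5 summit that was nearer to AT2G39470. Neither can be given to the named gene alone. EMB2296 (AT2G18020) is another locus named for an embryo defect. Its SPT16 summit over S5P at the end, the stronger of its 2 summits, scored 3.78 and lay 98 bp inside the gene.

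The scores of the S5P lists were nearer to the ordinary for SPT16, with a median of 5.02 against 5.24 for all genes, than for SSRP1, with 4.28 against 5.21. The highest SPT16 scores over S5P were 12 at AT5G02870, 11.7 at AT1G01100 and 10.9 at ATL5. SSRP1 over S5P did not exceed 6.82, at ATL5. AT1G01100 kept the same base, 50960, in both SPT16 lists.

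Counted per factor, 30 members had a SSRP1 summit over both RNAPII forms (background 12.6%) and 31 a SPT16 summit over both (background 16.3%). ELF7 had 4 (background 1.97%) and SPT5 had 1, emb2386 (background 0.521%). SSRP1 and SPT16 were both found at 32 members over S2P (background 17.3%) and at 29 over S5P (background 12.9%). Each of these pairs shares libraries, so that some joint presence is built in.

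The ELF7 summits had the largest median distances from a gene end of the 8 lists. Each list holds its own genes, so this does not rank the factors within a gene. All 14 over S2P and all 4 over S5P were inside, at medians of 730.5 and 707 bp from the nearest end, close to the 731.5 and 748.5 bp of all genes in those lists. Among all genes 4.86% and 8.25% lay outside. None of the members' summits was nearer than 501 bp to an end, and 76.6% and 70.2% of all genes had theirs beyond 500 bp. The median folded place was 0.413 over S2P, against 0.354 for all genes, where 0.5 is the gene centre. Over S5P it was 0.377, against 0.339 for all genes, and SPT16 over S2P had the same 0.377 at its members.

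ELF7 scores over S2P were low, with a median of 3.58 against 4.67 for all genes and 4 of 14 above that value. RPL5B (AT5G39740), the other L5 gene, led with 7.06 at 813 bp. PGY2 (AT1G33140, PIGGYBACK2), another gene of the leaf polarity group, followed with 5.74 at 502 bp, and AT4G16720 with 5.71 at 708 bp. SAC52 (AT1G14320), for ribosomal protein L10, which joins the subunit late in its assembly, had 2.08. Over S5P the 4 members were AT5G27850 (4.61), PGY2 (4.6), emb2386 (4.6) and ATL5 (2.92). At PGY2 the ELF7 summits stood at 12024281 over S2P and 12024282 over S5P of chromosome 1, and at AT5G27850 on 1 base, 9873930 of chromosome 5, in lists that share the ELF7 libraries.

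SPT5 over S2P, with 3 members, behaved unlike SPT5 over S5P in place. Its summits lay inside BBC1 (4.1 at 536 bp), AT4G16720 (3.28 at 546 bp) and emb2386 (2.23 at 367 bp). BBC1 and AT4G16720 had no SPT5 summit over S5P. With 3 genes the group allows no statement on its usual place.

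Because the gene table has no strand, the 30 genes with a SPT5 summit over S5P within 100 bp of an end were oriented by that end. From there, SSRP1 over S2P lay beyond the gene centre in 19 of 21 genes (90.5%) and SPT16 over S2P in 19 of 23 (82.6%). These lists share no library with SPT5 over S5P under the reading used here. All genes treated in the same way gave 90.4% and 81.8%, close to the shares of the large subunit genes. The exceptions for SSRP1 were EMB2296 and RPL23AA, and for SPT16 these together with RPL18 and AT1G09590.

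Between these lists, SPT5 over S5P and SSRP1 over S2P shared 25 members, which is 67.6% of the SPT5 and 73.5% of the SSRP1 members, against 25.1% and 20.6% for all genes in the lists. SPT5 over S5P and SPT16 over S2P shared 27, or 73.0% and 77.1%, against 28.9% and 21.5%. In SPT5 over S5P, SSRP1 over S2P and SPT16 over S2P alone, the shares of the 58 were already 63.8%, 58.6% and 60.3%. Those of all genes were 15.6%, 19.1% and 21.0%, so that the higher overlaps among the members follow largely from the single lists.

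As a share of gene length, FACT over S2P lay less far across the large subunit genes than across genes at large. The median place was 0.668 of the gene length from the SPT5 end for SSRP1 over S2P and 0.62 for SPT16 over S2P, against 0.811 and 0.781 for all genes. In base pairs the summits were 563 and 649 bp from the far end, against 447 and 524 bp. From the SPT5 end they were 1189 and 1047 bp, against 1944.5 and 1865 bp for all genes. The share depends on gene length, which was not matched between the 2 sets. These differences were not tested. A check chosen after the data were seen, leaving out genes whose SPT5 summit was nearer to a neighbour, left 23 oriented genes, of which 15 of 16 for SSRP1 and 15 of 17 for SPT16 had the summit beyond the centre.

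STV1 is an example, with SPT5 over S5P (2.71) at position 19660448 of chromosome 3, 40 bp outside one end, and SSRP1 over S2P (10.2) at 19661834, 191 bp from the other end. AT3G09630 had SPT5 (4.34) 51 bp outside one end and SSRP1 (10.3) 309 bp and SPT16 (8.99) 416 bp from the other. SAG24 (AT1G66580), a senescence-associated gene for ribosomal protein L10, had SPT5 (6.63) 63 bp inside one end and SPT16 over S2P (7.82) 301 bp from the other. In each of these genes the SPT5 summit over S5P and the FACT summits over S2P given here were on opposite sides of the gene. AT3G09630 also had a weaker SPT16 summit over S5P (4.62) 33 bp inside the SPT5 end.

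SPT5, SPT16 and SSRP1 over S5P are read as sharing the S5P libraries, so the next values are a description of place only. The strongest SPT16 summit over S5P lay beyond the centre in 16 of 26 oriented genes (61.5%), against 27.5% of all genes, for which the median place was at the SPT5 end (19 bp from it, against 1012 bp for the members). The 16 include RPL23AB and AT3G58700, where it lay 191 and 29 bp outside the far end. Counting any SPT16 summit rather than the strongest, 13 of the 30 members (43.3%) had one within 100 bp of the SPT5 summit. Among all genes it was 1139 of 2437 (46.7%). A SPT16 summit over S5P was present at 86.7% of the members and 59.7% of all genes so oriented. Of the genes with one, it was 13 of 26 members and 1139 of 1454 of all genes, a smaller share of the members. SSRP1 over S5P lay beyond the centre in 18 of 20 members (90.0%), against 62.3% of all genes. ELF7 over S2P lay beyond the centre in 4 of 6 genes (66.7%), close to the 69.3% of all genes.

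**Figure D4:**
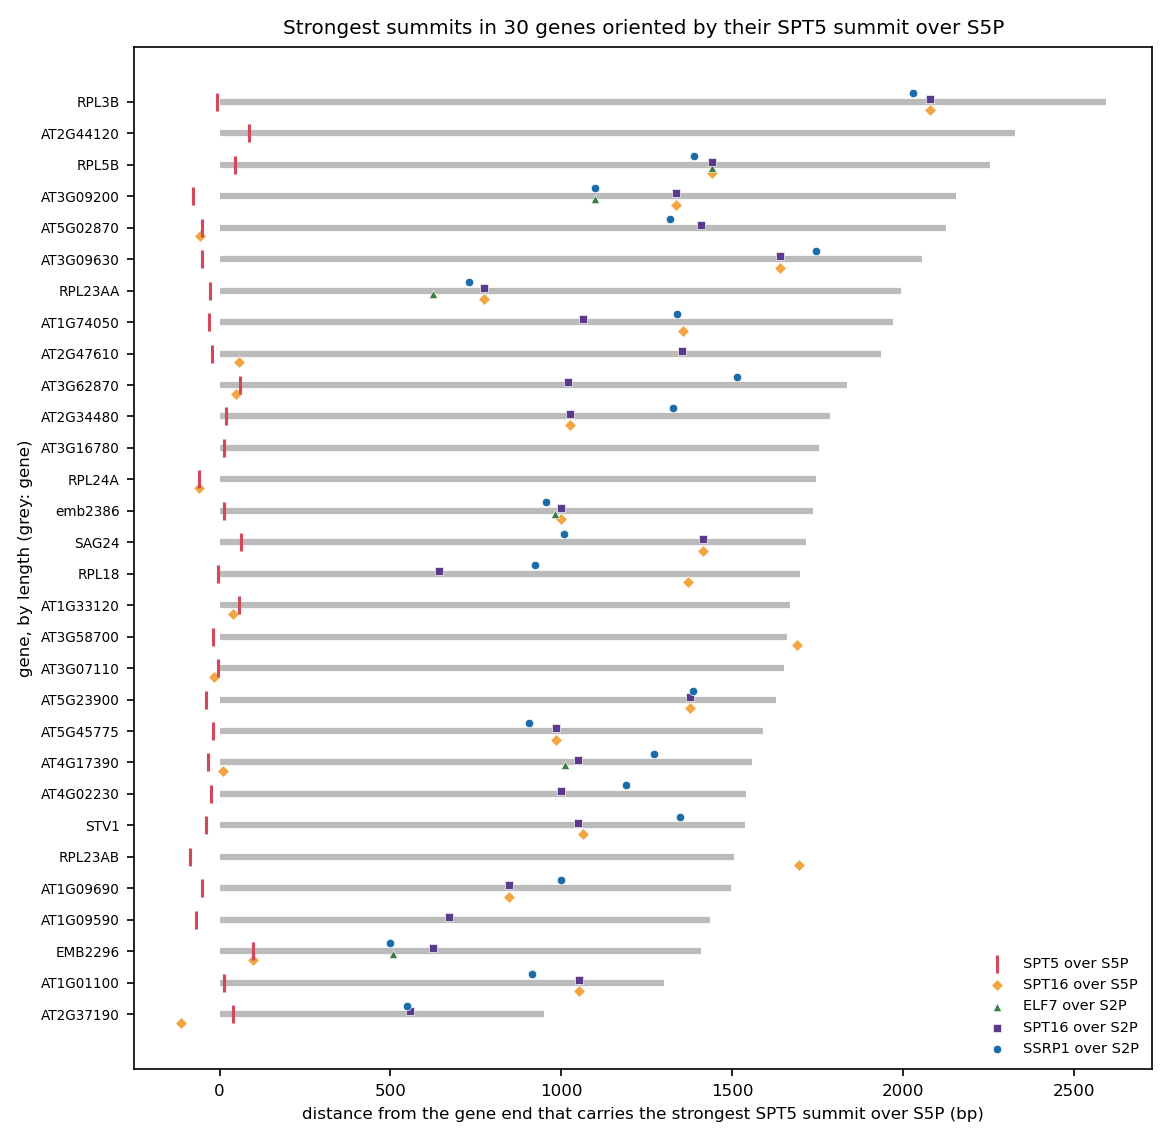
The 30 genes (rows, grey bars to scale, sorted by length) whose strongest SPT5 summit over S5P lies within 100 bp of a gene end, drawn from that end (x axis, bp), with the strongest SPT5 summit over S5P, SPT16 summit over S5P and ELF7, SPT16 and SSRP1 summits over S2P; markers are offset upward or downward to keep them apart. The SSRP1 circles lie beyond the gene centre in 19 of 21 genes, and the SPT16 summits over S5P lie beyond it in 16 of 26, at RPL23AB and AT3G58700 outside the far end.

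Paralogs of the same protein often differed. The 58 genes fall into 23 protein families, of which 22 have more than 1 gene here, and every family had a SPT5 summit over S5P and a SSRP1 summit over S2P in at least 1 gene. In the families of RPL3B, PGY1, AT4G17390 and AT3G09200, however, the only SPT5 summit over S5P was nearer to a neighbouring gene. The SPT5 summit was present at every paralog in 7 of the 22 families, and so was that of SSRP1 over S2P in 7. In 8 families 1 paralog was in 4 or more lists and another in none. In 5 families all paralogs were in 4 or more. Reads that match several near-identical copies may have been placed or dropped by settings not given in the sources used here, so that a difference between close paralogs is uncertain.

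The family of emb2386 had the widest range, from 8 lists to 3 for AT4G02230 and 1 for AT3G16780. AT3G16780 nevertheless had a SPT5 score over S5P of 5.87, 12 bp from an end, and AT4G02230 one of 6.6 at 25 bp, both above the 2.41 of emb2386. The AT4G02230 summit lay outside that gene and inside its neighbour AT4G02220. PGY1 was in 6 lists, and its paralogs AT1G08360 and AT5G22440 were in none. PGY2 was in 6 without SPT5, while its paralog AT1G33120 had SPT5 and SPT16 over S5P alone (8.05 and 5.61) and AT4G10450 was in none. In the families of emb2386 and PGY2 the paralog in the most lists was not the one with the highest SPT5 score over S5P.

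The L10 genes ranked SAG24 with 5 lists, SAC52 with 2 and RPL10B with 0. BBC1 (6) and AT5G23900 (5) stood against AT3G48960 with 0, and EMB2296 (6) against AT4G36130 with 1. RPL16A was in no list and RPL16B in SPT16 over S5P alone (4.43), while their paralogs AT3G58700 and AT5G45775 were in 2 and 5. The summit counted for RPL16B lay 70 bp outside it and inside the neighbouring gene AT4G18740. AT3G09200 (6) had the paralogs AT2G40010 and AT3G11250 with 0. AT2G34480 (5) had AT3G14600 with 0, and AT2G01250 (4) had AT2G44120 with 1 and AT3G13580 with 0.

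Pairs that differed in kind were RPL23AA with RPL23AB and STV1 with RPL24A. RPL23AB and RPL24A had SPT5 and SPT16 summits over S5P and no other, as did AT1G33120, AT3G58700 and AT1G74060. RPL23AA and STV1 had these and SSRP1 and SPT16 over S2P as well. RPL23AB had the higher SPT5 score of its pair (12.1 against 4.88), and RPL24A that of its own (3.52 against 2.71). Both summits of RPL24A lay at position 15350209 of chromosome 2, 59 bp outside the gene and inside AT2G36610. Those of AT1G74060 were also inside AT1G74055. The SPT16 summit of RPL23AB and the SPT5 summit of RPL23AA were nearer to a neighbouring gene. None of these summits can be given to the named gene alone.

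Other pairs were alike. RP1 and RPL3B were in 5 lists each, with SSRP1 over S2P at 5.94 and 6.24, SPT16 over S2P at 4.33 and 4.31 and SPT16 over S5P at 5.59 and 6.79. They differed in that RP1 had ELF7 over S2P (3.21) and no SPT5 summit, and RPL3B the reverse. The L5 genes ATL5 and RPL5B, whose mutants share altered leaf cell numbers in Arabidopsis, both had SPT5 over S5P, at 14 and 3.3, and ELF7 over S2P, at 4.93 and 7.06. AT3G09630 and AT5G02870 were in the same 5 lists, as were AT2G37190 and AT3G53430.

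**Figure D5:**
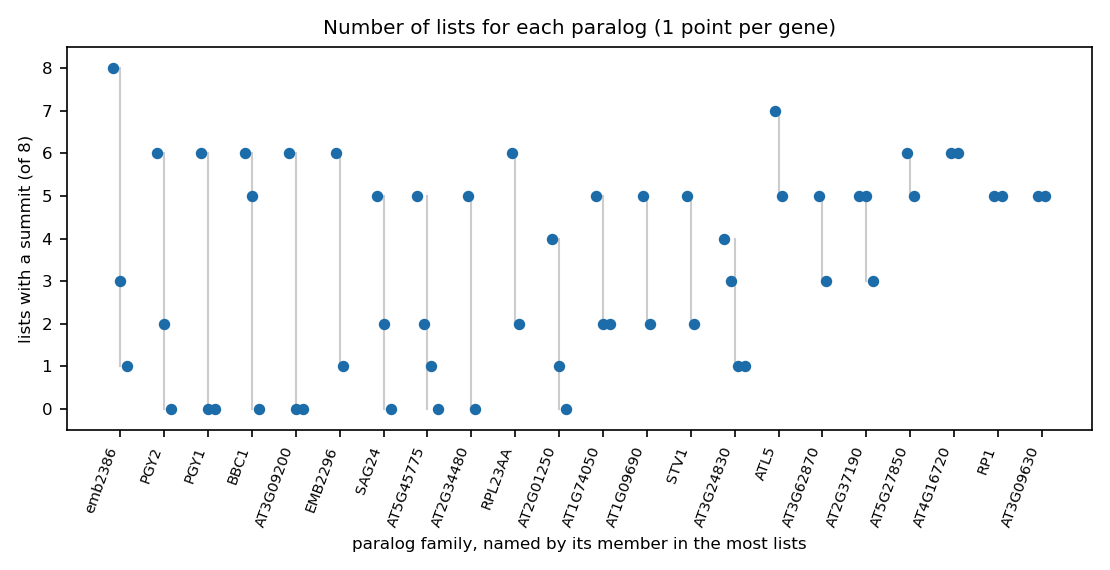
Number of lists with a summit (y axis, of 8) for each gene (1 point per paralog) in the 22 families with more than 1 gene here, named by the paralog in the most lists (x axis) and sorted by range. The range is widest in the family of emb2386, from 8 to 1, and is 0 in the last 3 families on the right.

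The 10 genes without a summit in any list were AT1G08360, AT2G40010, AT3G11250, AT3G13580, AT3G14600, AT3G48960, AT4G10450, AT5G22440, RPL10B and RPL16A. Their median length was 1683 bp, against 1707.5 bp for the 48 others. Absence from a list means that no summit passed the threshold, and at unknown depth it does not show that a factor was absent. A further 4 genes, AT2G44120, AT3G16780, AT4G13170 and AT5G48760, had a SPT5 summit over S5P and nothing else, which was so for 6.9% of the 58 and 5.91% of all genes.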

How the data were processed

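The genome build TAIR10 and the tools MACS3, Bowtie2, deepTools, Trimmomatic 0.39 and SAMtools 1.16.1 are named per the submitters' processing notes. Their settings, the control of each list and any pooling were not stated. The authors deposited summits whose score was read as −log10 of q, MACS3's usual summit score, with no value per library. A list called with other depths would hold other genes, so list sizes are not compared.

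Summits (counted from 1) were joined with Python 3.11.15 and pandas 2.3.3 to genes of an NCBI RefSeq table of TAIR10.1; its coordinates are not printed, and it holds no strand, exons or sequences; all 58 members matched. Registration was checked with SPT5 over S5P, whose summits had a median signed distance of -34 bp from left and 39 bp from right gene ends, a mean of 2.5 bp. Assignment was tested on simulated summits. Members, gene lists and families were chosen with earlier results of these data known, and families of loci without a symbol come from general knowledge of the gene family. Planned promoter motifs and protein identities were not analysed here.

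Genes named with values were the 3 highest scores of each list, genes in 5 or more lists, those with a SPT5 summit and families with 1 paralog in 4 or more lists and another in 0; a few others serve as paralogs or examples. Alternatives were windows of 0, 250 and 1000 bp, scores of at least 5 and 10, other rules of assignment and all summits in place of the strongest.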

Additional observations from a re-analysis of the deposited data

How the results depend on the processing

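No paired analysis was possible because the lists hold no values per library, and for the same reason no library could be left out. Windows of 250 and 1000 bp, the other rules of assignment and the use of all summits left counts, median distances and median scores within 1.5 times. With summits inside genes only, SPT5 over S5P kept 16 members and the median distance of SPT16 over S5P became 475 bp. A higher minimum score lowers counts by construction. At scores of at least 5, members with a summit numbered 0 for SPT5 over S2P, 18 for SPT5 over S5P, 3 and 0 for ELF7 over S2P and S5P, 21 and 13 for SSRP1, and 17 and 19 for SPT16, and the median ELF7 score over S2P was 5.74. Both forms were then found at 0 members for SPT5 and ELF7, 9 for SSRP1 and 7 for SPT16, and both FACT subunits at 13 over S2P and 7 over S5P. The share of members stayed 2.09 to 4.47 times that of all genes in the FACT lists and SPT5 over S5P, and was 1.34 times for ELF7 over S2P. At scores of at least 10 the counts were 0, 3, 0, 0, 4, 0, 2 and 3 in the order of the lists above. SSRP1 over S2P was then at 1.12 times and SPT16 over S2P at 0.579 times the share of all genes, and SPT5 over S5P at 10.6 times. The last ratio rests on 3 genes, and at ATL5 and PGY1 the summit lay inside a neighbouring gene. Median distances became 113 bp for SPT5 over S5P, 296.5 bp for SSRP1 over S2P and 232.5 bp for SPT16 over S2P, and median scores 13.5 for SPT5 over S5P, 10.2 for SSRP1 over S2P, 14.7 for SPT16 over S2P and 11.7 for SPT16 over S5P. Protein-coding genes in the length range of the members, a background chosen after the data were seen, had shares of 1.2% and 14.9% for SPT5, 9.69% and 2.17% for ELF7, 21.1% and 15.3% for SSRP1 and 23% and 24.8% for SPT16, over S2P and S5P. The rule giving each summit to the nearest gene was also added after the data were seen. Depth is unknown, so that a gene missing from a list is not shown to lack the factor.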
